A study of Homo sapiens with 2 samples.

Results

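Hedgehog signalling was read at the RNA level through 8 genes, PTCH1, GLI1, GLI2, GLI3, HHIP, SMO, SUFU and GAS1, in outgrowths of human embryoid bodies. The genes were chosen by name, and every probe set that the array's annotation gave to one of them alone was used, which was 24 probe sets for the 8 genes out of 41091 such probe sets for 19775 genes. The cells came from HUES9, a human embryonic stem cell line, at passage 32, and spent 10 days as embryoid bodies, clumps in suspension where pluripotent cells start to leave the pluripotent state. They were then seeded on fibronectin under chemically defined conditions, and the adherent outgrowth (OG) was passaged. SB-OG cultures were exposed to SB-431542, which blocks the kinase of the TGF-β, activin and nodal type I receptors, at 10 µM as embryoid bodies and at 1 µM as outgrowth, whereas control-OG cultures received the vehicle DMSO at 0.01%. From passage 5 outgrowths, 3 samples per condition were combined, and each mixture was read on 1 Affymetrix array, so there is 1 array for SB-OG and 1 for control-OG. Each difference describes 1 pair of arrays from 1 cell line, with no replicates and therefore no test.

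Hedgehog ligands are secreted proteins that bind PTCH1, a receptor that keeps the transmembrane protein SMO inactive until ligand arrives. Active SMO, working in the primary cilium, lets the zinc finger proteins GLI2 and GLI3 act as activators instead of being held by SUFU or cut to repressors, and GLI1, PTCH1 and HHIP are direct targets whose RNA is the usual readout of the pathway. In the vertebrate embryo, Hedgehog from notochord and floor plate patterns the ventral neural tube and the somites, from which skeletal muscle and the sclerotome arise.

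Intensities were in the linear units of the deposited table. The background level, the 95th percentile of 217 probe sets for gene families assumed silent in these cells, was 27.2 on SB-OG and 32.1 on control-OG, and a value under it is written as not above background. Both arrays had nearly the same median intensity, 21.8 on SB-OG and 22.6 on control-OG, over 54675 probe sets. For GAPDH, the signal at the 3′ end over that at the 5′ end, which grows as RNA degrades, was 0.958 on SB-OG and 0.995 on control-OG. The same ratio for ACTB was 1.55 on SB-OG and 1.65 on control-OG. Of the 19775 genes, 12557 exceeded background on 1 array or both, and 36.5% on neither. Probe sets of 1 gene gave log2 differences that varied with a standard deviation of 0.47 over 4953 genes, which is the only technical spread that the arrays allow. Log2 differences were taken as SB-OG minus control-OG.

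By its brightest probe set, GAS1 was lower in SB-OG by more than 2-fold, GLI2 by 1.95-fold and GLI3 by 1.54-fold, while PTCH1, SUFU and SMO were within the spread between probe sets. The targets GLI1 and HHIP were not above background on either array. Of the 6 members above background, 1 passed 2-fold downward and 0 upward. Over all 12557 measured genes the shares were 13.0% downward and 12.4% upward, so the members' counts were near the background. The median log2 difference of the 6 was -0.35, beside -0.02 over all measured genes. By gene, 5 of the 6 had a negative difference, beside 51.2% of all measured genes. Of the 9 member probe sets above background on both arrays, 8 had a negative difference and 1 a positive one. These 9 came from the same 6 genes, and probe sets of 1 gene are not independent readings. Scaling the arrays on the hybridisation controls shifted the median of all genes by 0.47, left GAS1 at -0.999, GLI2 at -0.49 and GLI3 at -0.16, and turned PTCH1 and SUFU positive, at 0.43 and 0.39.

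**Figure D1:**
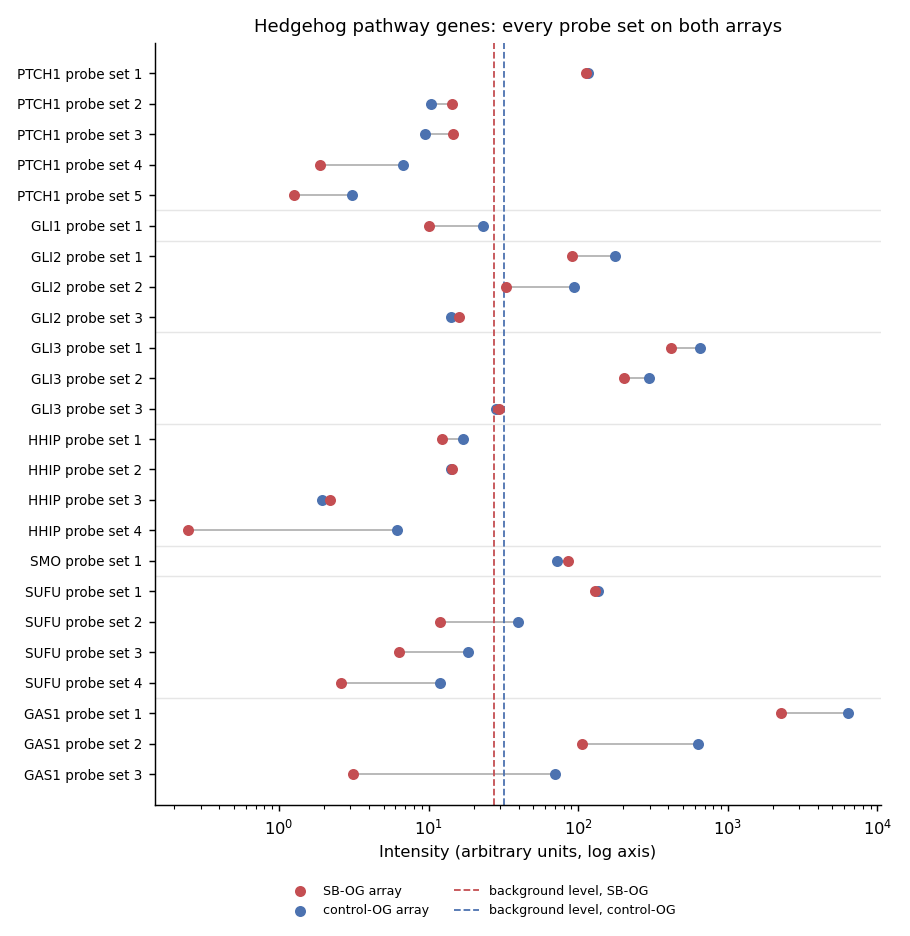
Intensity (arbitrary units, log axis) of each of the 24 probe sets of the 8 genes on the SB-OG array (red) and the control-OG array (blue), joined by a grey line, with probe sets of a gene ordered from brightest to dimmest. Dashed lines mark the background levels, 27.2 on SB-OG and 32.1 on control-OG; all 3 GAS1 probe sets and the GLI2 and GLI3 probe sets to the right of the lines have the SB-OG point on the left, and every GLI1 and HHIP point lies below its array's line.

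PTCH1, the receptor that is also a target, was the only member found with an exact GLI-binding word near a gene start, among the 6 that had sequence windows. The 9-letter word GACCACCCA, or its reverse complement TGGGTGGTC, was searched on both strands in RefSeq windows from 250 bases before to 50 bases after each annotated gene start (GRCh38.p14). Of 35116 windows, 83 (0.236%) held it. Windows were found for 6 members, 11 in all, and 1 of them held the word, a PTCH1 window, at bases -172 to -164 from that start. PTCH1 has 5 windows and the other 4 held no match. The windows of GAS1 and of the more upstream of 2 GLI2 starts, the members with the largest differences, are shown for comparison and held no match, which says only that these letters are not in them. None of the 13 genes with a window in the list of other reported targets held the word. The sequences read 5′ to 3′ on the gene's strand, and the capitals in PTCH1 mark the word.
PTCH1, chr9:95509217-95509516, minus strand: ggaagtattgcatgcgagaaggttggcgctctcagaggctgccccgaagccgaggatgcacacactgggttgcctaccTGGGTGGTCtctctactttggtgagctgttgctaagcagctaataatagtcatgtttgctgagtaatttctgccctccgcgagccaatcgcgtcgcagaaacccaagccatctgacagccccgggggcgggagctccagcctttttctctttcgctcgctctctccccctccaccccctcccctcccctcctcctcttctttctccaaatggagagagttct
GAS1, chr9:86947457-86947756, minus strand: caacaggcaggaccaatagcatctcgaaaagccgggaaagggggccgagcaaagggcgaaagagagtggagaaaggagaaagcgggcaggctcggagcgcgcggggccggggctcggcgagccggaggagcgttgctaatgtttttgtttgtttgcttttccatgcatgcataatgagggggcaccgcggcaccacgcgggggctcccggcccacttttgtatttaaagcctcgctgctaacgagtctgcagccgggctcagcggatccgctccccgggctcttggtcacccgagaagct
GLI2, chr2:120735618-120735917, plus strand: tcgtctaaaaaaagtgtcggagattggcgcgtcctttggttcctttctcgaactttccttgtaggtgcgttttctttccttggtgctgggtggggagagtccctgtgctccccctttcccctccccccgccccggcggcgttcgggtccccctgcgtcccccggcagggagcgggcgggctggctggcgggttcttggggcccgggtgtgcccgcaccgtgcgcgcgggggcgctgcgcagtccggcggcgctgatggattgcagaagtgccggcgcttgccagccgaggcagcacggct
A match is a description of the letters and does not show binding in these cells.

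PTCH1 had an intensity of 112.5 on SB-OG and 115.6 on control-OG by its brightest probe set. The arrays were close to each other, with a log2 difference of -0.04, and 49.1% of measured genes had a lower difference. The other 4 PTCH1 probe sets were not above background on either array, at 1.26 to 14.6 on SB-OG and 3.06 to 10.4 on control-OG, so the receptor was read by 1 probe set of 5.

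GAS1, a surface protein anchored by a lipid that binds Hedgehog and acts as a co-receptor in the mouse embryo, had the largest difference among the 6 measured members. Its brightest probe set read 2283 on SB-OG and 6318 on control-OG. The next read 106.2 on SB-OG and 634 on control-OG. The third read 3.14 on SB-OG, not above background, and 69.8 on control-OG. All 3 were lower on SB-OG, with log2 differences of -1.47 and -2.58 for the first 2, which is 2.77-fold and 5.97-fold lower, and at least 2.56-fold lower for the third. By the brightest probe set, 7.25% of measured genes had a lower difference. The size thus depends on the probe set, with a standard deviation of 0.78 between the first 2, while the direction was the same in all 3.

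HHIP, a membrane protein that binds and sequesters Hedgehog ligands, had 4 probe sets. They read 0.247 to 14.4 on SB-OG and 1.94 to 17.0 on control-OG, none above background. HHIP RNA was therefore not detectable on either array, and no difference is given.

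SMO, the transducer that PTCH1 restrains, had 1 probe set, which read 85.5 on SB-OG and 72.5 on control-OG. It was the only measured member with a positive difference, 0.24 on the log2 scale or 1.18-fold, and 63.5% of measured genes had a lower one. That is under the standard deviation of 0.49 between probe sets for genes of such dim signal (402 genes whose brightest probe set averaged under 100).

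SUFU, the cytoplasmic protein that binds GLI factors and holds them back, read 129.1 on SB-OG and 136.0 on control-OG by its brightest probe set, a log2 difference of -0.08. A second probe set read 11.98 on SB-OG, not above background, and 39.7 on control-OG, at least 1.46-fold lower. The other 2 were not above background on either array, at 2.60 and 6.38 on SB-OG and 11.99 and 18.4 on control-OG. The bright probe set thus gave nearly the same value on both arrays, and the dim one a lower value on SB-OG that only just cleared background on control-OG.

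GLI2, the main activator among the GLI factors in the mouse, read 90.5 on SB-OG and 176.2 on control-OG by its brightest probe set. A second probe set read 33.2 on SB-OG and 93.9 on control-OG. Both were lower on SB-OG, with log2 differences of -0.96 (1.95-fold lower) and -1.50 (2.83-fold lower). The third, at 16.1 on SB-OG and 14.1 on control-OG, was not above background on either. The brightest probe set fell short of the 2-fold threshold by a small margin, and it passed under quantile normalization and the lowess correction (-1.08 and -1.05). Of all measured genes, 13.7% had a lower difference.

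GLI3, the main repressor among the GLI factors, read 420.4 on SB-OG and 649.6 on control-OG by its brightest probe set. Its second probe set read 202.3 on SB-OG and 299.2 on control-OG. The 2 gave log2 differences of -0.63 and -0.56, or 1.54-fold and 1.48-fold lower, and the third probe set, at 29.4 on SB-OG and 28.2 on control-OG, was above background on SB-OG only, by a small margin. The standard deviation between the first 2 was 0.04, far under the 0.47 over all genes, and the gene stayed within 2-fold. Of measured genes, 22.0% had a lower difference.

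GLI1, the transcription factor whose own gene is a GLI target, had 1 probe set, which read 10.1 on SB-OG and 23.1 on control-OG. Neither value was above background, so GLI1 RNA was not detectable on either array and no fold is given. The plot of the difference of each measured member among all genes shows SMO, PTCH1 and SUFU in its centre.

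**Figure D2:**
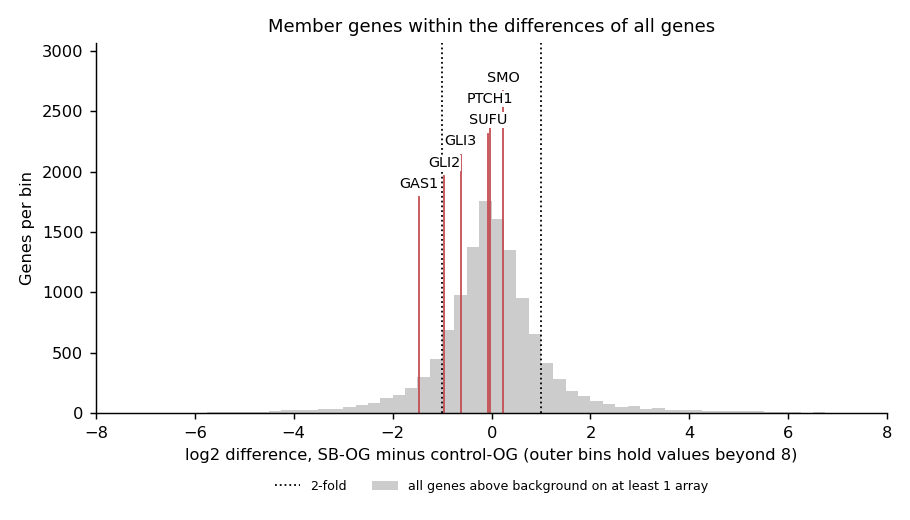
Number of genes (vertical axis) by log2 difference, SB-OG minus control-OG (horizontal axis), for the 12557 measured genes, with red lines at the 6 measured members and dotted lines at 2-fold. GAS1 lies at -1.47, outside the dotted line, GLI2 at -0.96 just inside it, and PTCH1, SUFU and SMO lie between -0.08 and 0.24.

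RNA of no Hedgehog ligand was detectable in either culture. SHH read 13.99 on SB-OG and 25.3 on control-OG by its brighter probe set, IHH 12.2 on SB-OG and 22.0 on control-OG, and DHH 8.68 on SB-OG and 1.64 on control-OG, all not above background. Of 9 genes for the ligands, their acylation and their release, 4 were above background, while 36.5% of all genes were not. Of the 4, HHAT was at least 2-fold higher and SCUBE3 lower, beside 12.4% and 13.0% of all measured genes. HHAT, the acyltransferase that attaches palmitate to Hedgehog ligands, read 373.4 on SB-OG and 59.9 on control-OG, 6.23-fold higher by its only probe set. SCUBE3, a secreted protein of the family that takes part in ligand release, read 94.0 on SB-OG and 193.2 on control-OG, 2.06-fold lower, with another probe set above background at -0.45.

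By their brightest probe sets, the co-receptors BOC and CDON read higher in SB-OG, opposite to GAS1. BOC and CDON are immunoglobulin superfamily proteins that bind Hedgehog and were also described as promoting myogenic differentiation in muscle cells. BOC read 392 on SB-OG and 174.3 on control-OG, 2.25-fold higher, with its other probe sets at log2 differences of 0.92 and -0.96, so that 1 of its 3 probe sets went the other way. CDON read 243 on SB-OG and 133.0 on control-OG, 1.83-fold higher and within the 2-fold threshold, with another probe set at 0.63. LRP2, another gene of the reception list, was named after its values were seen because it went the way of GAS1. It read 20.4 on SB-OG, not above background, and 36.0 on control-OG, at least 1.32-fold lower. GPC3, the remaining gene of that list and its brightest, read 1429 on SB-OG and 891 on control-OG, 1.60-fold higher. Of the 4 reception genes represented, BOC alone passed 2-fold, beside 12.4% of all measured genes higher and 13.0% lower. The median log2 difference of the 4 was 0.77, beside -0.02 over all measured genes. Averaging a gene's probe sets gave a median of 0.45, with 0 reception genes at least 2-fold higher.

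Of 20 genes above background in the list for transduction and GLI regulation, 16 were within 2-fold, 3 higher and 1 lower. Over all measured genes the shares were 74.6%, 12.4% and 13.0%. The median log2 difference of the 20 was 0.09, and 0.56 under scaling on the hybridisation controls. PRKACA, a catalytic subunit of protein kinase A, which phosphorylates GLI factors ahead of their processing, read 300.6 on SB-OG and 66.1 on control-OG, 4.55-fold higher, with its other probe set not above background. BTRC, the ubiquitin ligase adaptor that then recognises them, read 300.02 on SB-OG and 119.8 on control-OG, 2.505-fold higher, but its other probe sets above background were at -0.00 and -0.21. ZIC2, a zinc finger protein related to the GLI family, read 185.0 on SB-OG and 32.9 on control-OG, 5.63-fold higher from a level just above background. KIF7, the ciliary kinesin that organises GLI and SUFU at the cilium tip, read 30.5 on SB-OG and 63.7 on control-OG, 2.09-fold lower. That was by its only probe set, and to a level just above background on SB-OG. PRKACB, another catalytic subunit of protein kinase A, was named after its values were seen because it is brighter than PRKACA. It read 1024 on SB-OG and 1625 on control-OG, 1.59-fold lower and within 2-fold, with another probe set at -0.02.

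The primary cilium, the organelle in which SMO acts, was represented by 24 genes for its assembly and gating. All 24 exceeded background, 22 stayed within 2-fold (74.6% over all measured genes), 2 were lower and 0 were higher, and the median was -0.13, which turned to 0.34 under scaling on the hybridisation controls. RAB23, a small GTPase that restrains Hedgehog signalling in the mouse, read 596 on SB-OG and 1306 on control-OG, 2.19-fold lower, and its other 2 probe sets were lower too, at -1.10 and -1.83. B9D1, a protein of the ciliary gate, read 134.0 on SB-OG and 309.4 on control-OG, 2.31-fold lower, with its other probe sets at -0.05 and -0.50. Under scaling on the hybridisation controls, none of SCUBE3, KIF7, RAB23 and B9D1 remained 2-fold lower.

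**Figure D3:**
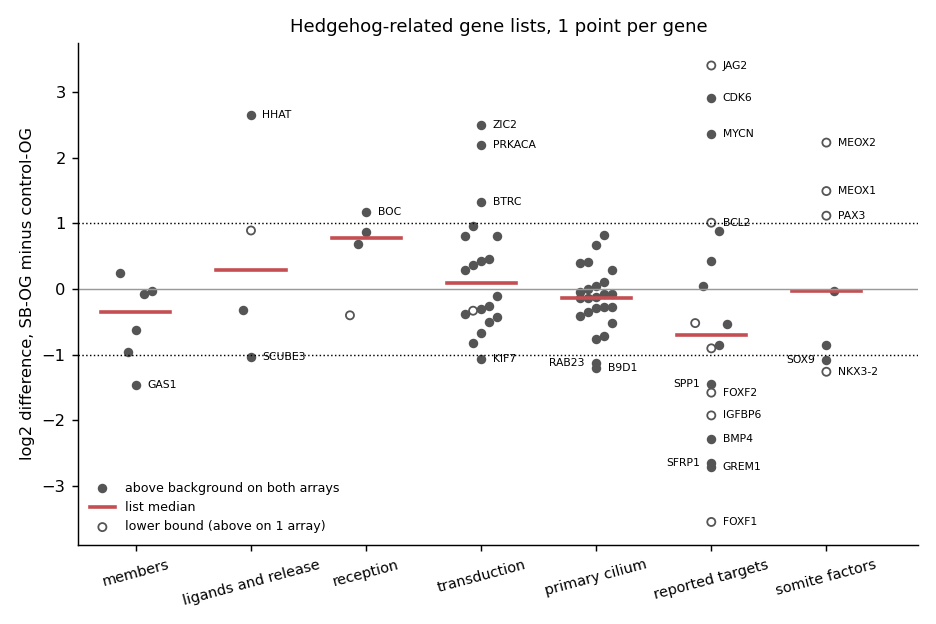
Log2 difference, SB-OG minus control-OG (vertical axis), of each detected gene, by gene list (horizontal axis), with filled points measured on both arrays, open points for bounds and red bars at list medians. Dotted lines mark 2-fold, beyond which genes are named; the cilium genes gather around -0.13 and the reported targets spread from -3.55 to 3.40.

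Genes reported as targets of GLI factors or of Hedgehog in other tissues went both ways. Of 20 represented genes, 18 exceeded background, and these divided into 4 that were at least 2-fold higher, 7 lower and 7 within 2-fold. Over all measured genes the shares were 12.4% higher, 13.0% lower and 74.6% within 2-fold. The list was chosen with earlier results of these data known, so its counts are a description only. The median log2 difference of the 18 was -0.70. It was -0.23 under scaling on the hybridisation controls and -0.08 with background at the 99th percentile, which left 4 lower. The part of Hedgehog signalling in the differences of these genes was not tested. FOXF1, a forkhead factor of splanchnic mesoderm, read 26.9 on SB-OG, not above background, and 318 on control-OG, at least 11.7-fold lower. GREM1, a secreted BMP antagonist, read 159.1 on SB-OG and 1037 on control-OG, 6.52-fold lower, with its other probe set at -2.84. SFRP1, a secreted Wnt antagonist, read 175.5 on SB-OG and 1106 on control-OG, 6.301-fold lower, and its other 3 probe sets above background on at least 1 array were also negative.

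JAG2, a Notch ligand, read 339.01 on SB-OG and 27.0 on control-OG, not above background there, at least 10.6-fold higher, and its other probe set was at least 6.81-fold higher. CDK6, a kinase of the G1 phase, read 2520.1 on SB-OG and 336.6 on control-OG, 7.49-fold higher, with its next 2 probe sets at 2.76 and 3.17. MYCN, a proliferation factor that Hedgehog induces in cerebellar precursors of the mouse, read 275.1 on SB-OG and 53.7 on control-OG, 5.12-fold higher, by the only 1 of its 10 probe sets above background. BCL2 was named after its values were seen because its probe sets disagree: the brightest was at least 2.01-fold higher and another at least 2.13-fold lower. The reported targets thus held large differences in both directions.

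**Figure D4:**
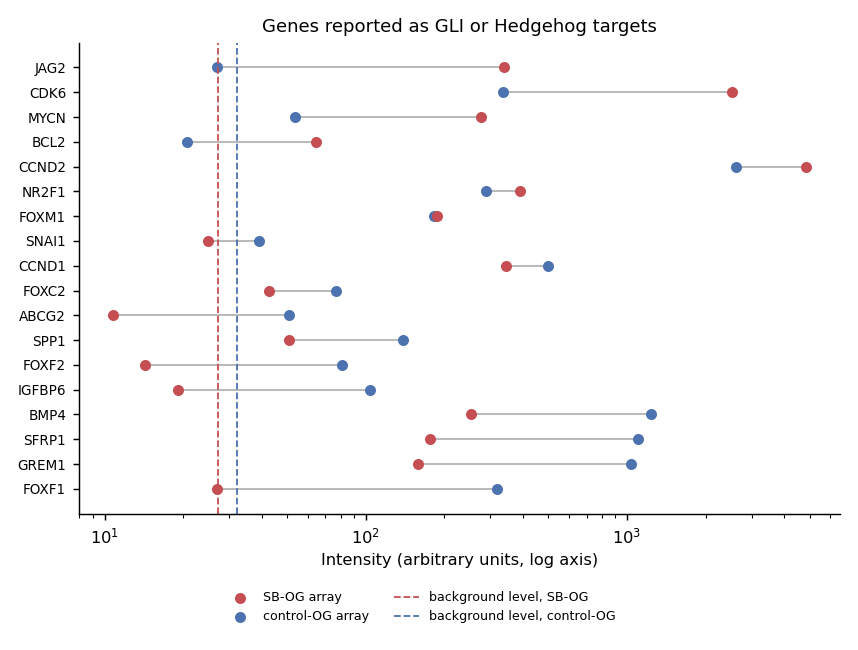
Intensity (arbitrary units, log axis) of the 18 detected genes among the reported targets, by brightest probe set, on SB-OG (red) and control-OG (blue), ordered from the highest log2 difference (JAG2) to the lowest (FOXF1). Dashed lines mark the background levels; 4 genes at the top are at least 2-fold higher on SB-OG and 7 at the bottom at least 2-fold lower.

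Among factors of tissues that Hedgehog patterns in the embryo, somite factors were split and ventral neural tube factors were not detected. Of 7 detected somite and sclerotome factors, 3 were higher by 2-fold or more and 2 lower, beside 12.4% and 13.0% of all measured genes. With background at the 99th percentile the counts were 1 higher and 0 lower. Scaling on the hybridisation controls left 0 lower, and averaging a gene's probe sets left 1 higher. MEOX2 and MEOX1, homeobox factors of the somite, were at least 4.68-fold and at least 2.81-fold higher (150.3 and 90.1 on SB-OG, 3.97 and 14.3 on control-OG), and PAX3, a factor of the dermomyotome, was at least 2.16-fold higher. Only 1 of 2 MEOX2 probe sets and 1 of 4 PAX3 probe sets were above background. NKX3-2, a sclerotome factor induced by Hedgehog in chick and mouse somites, read 20.3 on SB-OG, not above background, and 65.2 on control-OG, at least 2.397-fold lower. SOX9, the factor of cartilage precursors, read 49.9 on SB-OG and 106.1 on control-OG, 2.13-fold lower. The sclerotome factors PAX1 and PAX9 were not above background. None of the 9 represented ventral neural tube factors, FOXA2, NKX2-2 and OLIG2 among them, was above background on either array.

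The 2 cultures also differed in cell type markers. Of 17 detected skeletal muscle markers, 16 passed 2-fold upward in SB-OG and 0 downward, with the 3 highest values for MYH8 (at least 261-fold), TNNI1 (160.5-fold) and TNNC2 (153-fold), where other markers are known only as bounds and may lie higher. The summed intensity of the 18 represented markers was 78631 on SB-OG and 1139 on control-OG, and of these MYF5 alone was not above background on either array. Of 15 fibroblast and mesenchymal markers, all detected, 9 passed 2-fold downward and 2 upward, and the summed intensity was 64953 on SB-OG and 124949 on control-OG. The largest negative differences were those of FAP (51.2-fold lower), THY1 (14.6-fold) and LUM (3.86-fold), and the positive ones those of S100A4 (5.57-fold) and PDGFRB (2.07-fold). The part of these markers' cell types in the differences of GAS1, GLI2, GLI3 and the other genes above was not tested, and in mixed cultures fewer cells of a type and less RNA per cell cannot be told apart.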

How the data were processed

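Per the labels' protocols, RNA was purified on columns from frozen cells and labelled by in vitro transcription with biotin. The values deposited by the authors are linear intensity values per probe set, and the summarising software and its scaling are not given in the sources used here. Trimmed of 2% of probe sets at each end, the mean intensity was 150.02 on both arrays, so the average was fixed and total RNA per cell is not visible. Names of probe sets came from the platform annotation, with symbols updated by gene ID (19735 of 19775 genes matched RefSeq, GRCh38.p14), and those with several genes (1801) or no name (11721) were left out. A gene took its brightest probe set, the one with the highest mean log2 intensity.

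Background came from genes of smell and taste receptors, hair keratin-associated proteins, defensins and the late cornified envelope (176 genes). Values under it were raised to it, so a difference with 1 side under background is a bound, written "at least", and with both sides under none is given. Where raising a value turned the sign, as in the third GLI3 probe set, no difference is given. Counts use 2-fold. The array medians of log2 intensity differed by 0.05, under the limit of 0.1 for centring. Having 1 array per condition limits the precision throughout and allowed no test.

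The members and lists were chosen with earlier results of these data known. Named were all members and, per list, the genes at least 2-fold apart, or the 3 largest each way where more than 6 were, with SHH, IHH, DHH, CDON and BOC in any case; 1 further gene of that rule is not reported here. Others, such as genes not above background, were named after their values were seen. No genes were named for likeness of pattern, since 2 arrays give each gene 1 difference. The alternatives were centring, quantile normalization, lowess (span 0.4), scaling on hybridisation controls, averaging a gene's probe sets, leaving out probe sets marked _s, _x or _a, using no floor, a 99th percentile background, a pseudocount of 16 and a 3-fold threshold. The calculation was tested on simulated data. Python 3.11.15, numpy 2.4.6, pandas 2.3.3 and statsmodels 0.14.6 were used.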

Additional observations from a re-analysis of the deposited data

How the results depend on the processing

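No paired analysis was possible because each condition has 1 array. Scaling on the hybridisation controls, the bacterial and phage RNAs added before hybridisation, shifted the median of all genes by 0.47 (log2) and put 76.8% of the genes 2-fold apart on the higher side in SB-OG, against 48.8% as reported. Under it the log2 differences were 0.43 for PTCH1, -0.49 for GLI2, -0.16 for GLI3, 0.71 for SMO, 0.39 for SUFU and -0.999 for GAS1, so PTCH1 and SUFU turned positive and 0 members were 2-fold lower. Relative to the median of all genes, GAS1 was then at -1.45, GLI2 at -0.94 and GLI3 at -0.61. The 2-fold counts under that scaling became 2 higher and 0 lower for ligands and release, 3 higher for reception, 6 higher and 0 lower for transduction, and 2 higher and 0 lower for cilium genes. Under the other scalings (quantile, lowess and centring), every measured member stayed within 0.47 of its reported difference, and the signs of GAS1, GLI2 and GLI3 stayed negative under all 9 alternatives that give them.

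The count of members 2-fold lower was 2 under quantile normalization and the lowess correction, 0 at 3-fold and on the hybridisation controls, and 1 under the others. Taking the mean of all probe sets moved GAS1 to -2.84 and left PTCH1 without a value, since its mean was not above background. That setting gave 0 ligand and release genes lower, 0 reception genes higher, 2 transduction genes lower, 1 cilium gene higher and 1 lower, and 2 targets higher. Without probe sets marked _s, _x or _a, 2 transduction genes, 1 cilium gene and 4 targets were lower. Ligand and release genes had 2 higher without a floor, and 0 lower with centring, the pseudocount and at 3-fold. At the 99th percentile background 0 transduction genes and 4 targets were lower, and the pseudocount left 0 transduction genes lower. At 3-fold, 0 reception genes were higher and 0 transduction and 0 cilium genes lower, by the stricter threshold itself. For the other settings the cause was not tested. Signal near background limits GLI1, HHIP, KIF7, the ligands and the dim probe sets of PTCH1 and SUFU.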

Other observations

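Markers of other cell types were read by their brightest probe sets. Of 9 neural markers above background, 7 passed 2-fold upward and 1 downward, with ZIC1 59.2-fold, DCX 42.8-fold and NEFM 38.3-fold higher and STMN2 at least 95.8-fold lower, while PAX6, SOX1, ELAVL4 and GFAP were not above background by that probe set, although another SOX1 probe set read 41.9 on SB-OG, above background there. The summed intensity of the 13 represented neural markers was 23706 on SB-OG and 7332 on control-OG. Of 5 epithelial markers above background, 4 were lower, KRT19 at least 181-fold, KRT8 51.3-fold, KRT18 29.5-fold and DSP 9.501-fold, and CDH1 was at least 2.58-fold higher. ESRP1 was above background only by another probe set, at 37.8 on SB-OG. EPCAM, CLDN3, CLDN4, CLDN7 and GRHL2 were not above background on either array. The epithelial markers had a summed intensity of 568 on SB-OG and 17065 on control-OG. Of 4 endothelial markers above background, KDR (at least 34.3-fold), TEK (at least 14.8-fold) and FLT1 (12.7-fold) were lower. PECAM1 read 37.9 on SB-OG and 25.5 on control-OG, not above background there, at least 1.18-fold higher. The endothelial markers CDH5, TIE1, VWF and ERG were not above background on either array.

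Smooth muscle markers were above background for 7 of 7 genes, with MYH11 at least 33.1-fold and LMOD1 2.09-fold higher and a nearly equal summed intensity, 20792 on SB-OG and 20759 on control-OG. The MYH11 and LMOD1 probe sets above background were all marked _s or _x. Without probe sets marked _s, _x or _a, 0 smooth muscle markers were 2-fold higher. Of 5 chondrocyte markers above background, COL2A1 was at least 4.77-fold higher, and HAPLN1 (at least 2.56-fold) and SOX9 (2.13-fold) were lower. Of 7 represented pluripotency markers, 2 exceeded background by the brightest probe set, and SOX2 was at least 4.59-fold higher by that probe set. Another SOX2 probe set was above background on both arrays, at 33.3 on SB-OG and 35.0 on control-OG. Its log2 difference was -0.07, so the SOX2 probe sets disagree. Another DPPA4 probe set read 42.7 on SB-OG, above background there.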
